A study of Homo sapiens with 24 samples.

Results

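Secretory carrier membrane proteins (SCAMPs) are encoded by 5 human genes, SCAMP1 to SCAMP5; they were selected by family name. Each gene has 1 probe set on the array used, and a level is given for 4 of the 5: the probe set of SCAMP4 is annotated to both ADAT3 and SCAMP4, so it names no single gene and was left out. The 4 measured genes are set here against 18417 genes in all. SCAMP1 was chosen because it was higher after FMR4 siRNA than after CTRL siRNA at 24 h, so its values in that comparison, and in any other that uses the arrays of those 2 groups, are descriptions without a test. SCAMP2, SCAMP3 and SCAMP5 entered by family name, though with earlier results of these data known, and were tested throughout.

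SCAMPs are membrane proteins of post-Golgi vesicles. They span the membrane several times, cycle between the trans-Golgi network, recycling endosomes and the cell surface, and take part in exocytosis, endocytosis and the sorting of receptors. SCAMP1, SCAMP2 and SCAMP3 carry NPF motifs at the cytoplasmic amino terminus, which bind EH-domain proteins of the endocytic machinery. SCAMP4 and SCAMP5 lack them, and SCAMP5 is known mainly from neurons and synaptic vesicles.

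HEK293T is a human embryonic kidney cell line that carries adenoviral sequence and the SV40 large T antigen. The cells were transfected either with 40 nM siRNA in Lipofectamine RNAiMAX, which was FMR4 siRNA (the siRNA FMR4(C), against the long non-coding RNA FMR4) or CTRL siRNA (a Silencer negative control), or with 0.5 µg plasmid in Lipofectamine 2000CD, which was pcDNA3.1 carrying FMR4 (FMR4 pcDNA3.1) or the empty vector (CTRL pcDNA3.1). RNA was taken at 6 or 24 h, which gives 8 conditions with 3 arrays each and 24 arrays in all. Every group was transfected and no untransfected cells were analysed here, so siRNA and plasmid groups differ in nucleic acid and reagent together. A single siRNA against FMR4 was used, no probe set in the annotation carries the symbol FMR4, and the knockdown and overexpression therefore could not be checked on these arrays.

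Values are log2 expression after GC-RMA, an array normalization that corrects background by probe base content, and a difference of 1 is a doubling. Array medians lay between 8.03 and 8.17, and arrays of one condition correlated at 0.990 or more across probe sets. The number of arrays limits the precision. A total of 7 of 8 HEK293T markers exceeded 7.73, the 95th percentile of 409 olfactory receptor and keratin-associated protein genes that are mostly silent, PAX2 being the exception, and 1 of 10 markers of blood cells, hepatocytes, fibroblasts and glia did (COL1A1). Comparisons were made with limma over all 24 arrays, two-sided, and a gene was called where its p, adjusted over all probe sets with a gene (Benjamini-Hochberg), was under 0.05. In bulk RNA, fewer cells that express a gene and less RNA per cell cannot be told apart.

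The members lie on 4 chromosomes of GRCh38.p14, and stretches of 30 bases upstream of the RefSeq starts of the 4 measured genes are shown to compare a motif before the SCAMP1 start with that of its relatives. SCAMP1 is at chr5:78360617-78480739 on the plus strand, SCAMP2 at chr15:74843730-74873365 on the minus strand, SCAMP3 at chr1:155255981-155262360 on the minus strand, SCAMP4 at chr19:1905399-1926013 on the plus strand and SCAMP5 at chr15:74995563-75021495 on the plus strand. Capitals mark a GC box, the letters GGGCGG, the nearest that lies wholly before the start on the gene's own strand, except in the last line, where they mark an E-box, CACGTG. The SCAMP1 line and the last line end at the base before the start. Counted from the start, the SCAMP2 line runs from -76 to -47, the first SCAMP3 line from -60 to -31 and the SCAMP5 line from -156 to -127, and SCAMP5 holds a further match just after its start. The lines run 5′ to 3′ and cover chr5:78360587-78360616, chr15:74873412-74873441, chr1:155262391-155262420, chr15:74995407-74995436 and chr1:155262361-155262390 in that order.
SCAMP1: gacgtgagcgcgcagggGGGCGGcggcctc
SCAMP2: ggggggggggggGGGCGGagcgaccccggt
SCAMP3: cacatggaagagGGGCGGtagttggttgtg
SCAMP5: tggaagatgccgGGGCGGccgggtcgtcct
SCAMP3: ggcactgggttagaggtatCACGTGggggc

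A GC box, on either strand, was found in the windows of all 5 members, which reach from 250 bases before to 50 bases after the start, and in 45.0% of 35116 such windows of RefSeq genes. Only SCAMP3 held an E-box, as did 7.26% of windows. SCAMP2 alone held CCAAT, which 34.6% of windows hold, and no member held TATAAA, found in 11.5%. The motifs do not overlap each other in the stretches shown. CpG dinucleotides numbered 43 in the window of SCAMP1, 26 in that of SCAMP2, 18 in that of SCAMP3, 37 in that of SCAMP4 and 43 in that of SCAMP5, against a median of 14 over all windows. The long non-coding RNA SCAMP1-AS1 is annotated on the opposite strand and starts 76 bases before SCAMP1, and no probe set carries its symbol. ADAT3, which shares the SCAMP4 probe set, also shares its annotated start.

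SCAMP1 was the member that varied most between conditions. Its means were spread over 1.09, from 9.91 ± 0.10 (SD, n = 3) in CTRL siRNA at 24 h to the mean of FMR4 siRNA at 24 h (SD 0.09, n = 3), and 99.6% of genes had a smaller spread of condition means. The spread was 0.28 for SCAMP2, 0.24 for SCAMP3 and 0.34 for SCAMP5, which 60.5%, 50.8% and 73.7% of genes did not reach. These are descriptions, since the lowest and highest conditions of SCAMP1 are those it was chosen from.

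**Figure D1:**
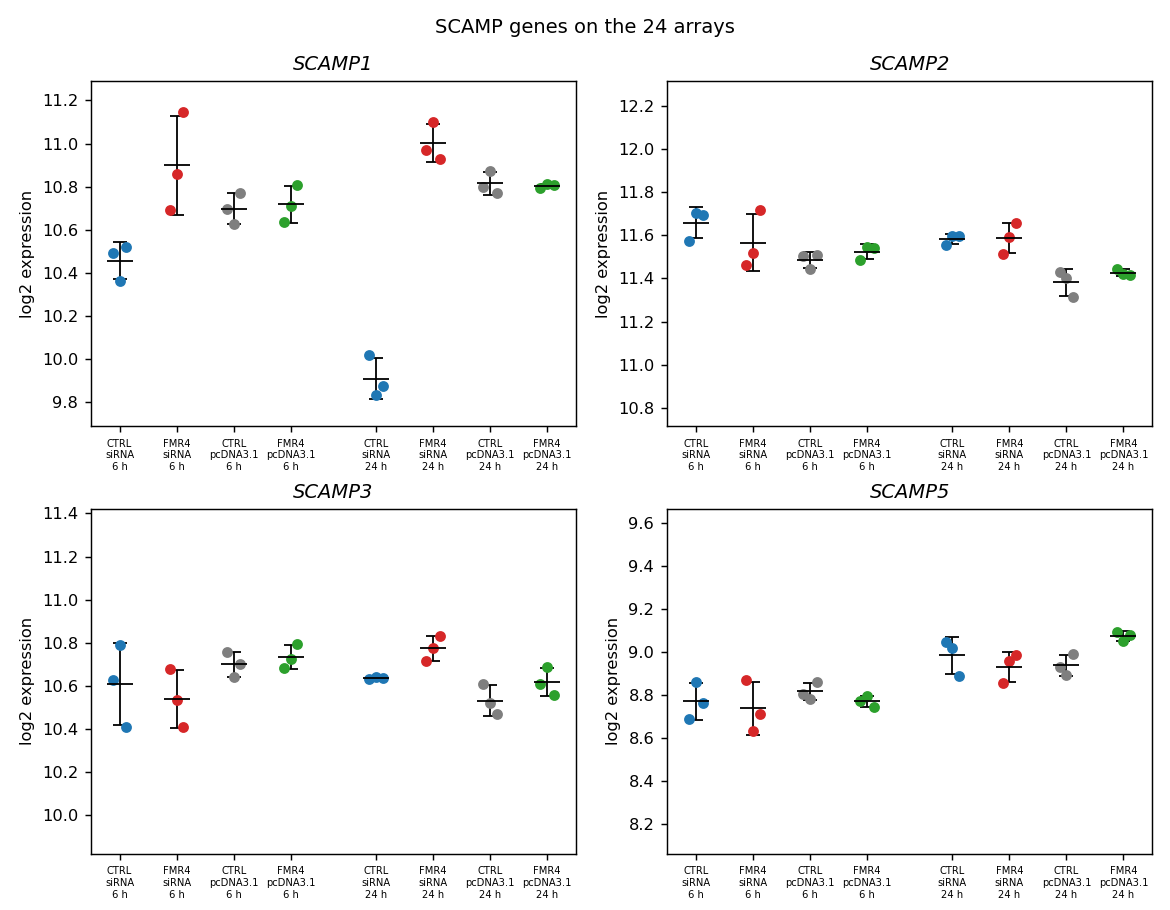
Log2 expression of SCAMP1, SCAMP2, SCAMP3 and SCAMP5 (vertical axis, the same span in each panel) on the 24 arrays, by treatment and time (horizontal axis; blue CTRL siRNA, red FMR4 siRNA, grey CTRL pcDNA3.1, green FMR4 pcDNA3.1). Points are arrays, and black bars are the mean and SD of 3 arrays; the 3 SCAMP1 arrays of CTRL siRNA at 24 h lie between 9.84 and 10.02, below every other SCAMP1 array.

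At 24 h, SCAMP1 was 2.13-fold higher with FMR4 siRNA than with CTRL siRNA, and both plasmid groups lay nearer to the FMR4 siRNA group. SCAMP1 is a broadly expressed family member that acts in recycling and exocytosis. With CTRL siRNA its arrays read 9.84, 9.87 and 10.02, and with FMR4 siRNA 10.93, 10.97 and 11.10. With CTRL pcDNA3.1 they read 10.77, 10.80 and 10.87, and with FMR4 pcDNA3.1 10.79, 10.81 and 10.81. The CTRL siRNA arrays were thus lower than all others of that time, and the FMR4 siRNA arrays were higher than all others. Non-overlap with the plasmid arrays, in either direction, was found in 16.4% of genes for CTRL siRNA and in 18.1% for FMR4 siRNA. Between the siRNA groups it was found in 22.2%. The difference between the siRNA groups was 1.09 on the log2 scale. CTRL siRNA lay 0.90 under the mean of both plasmid groups (1.87-fold lower) and FMR4 siRNA lay 0.19 above it (1.14-fold higher). These comparisons share arrays with the one SCAMP1 was chosen by, and none is tested here.

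At 6 h, where SCAMP1 had not been chosen, its difference between the siRNA groups had the same sign. It missed the threshold narrowly in the fit to all 24 arrays. The CTRL siRNA arrays read 10.36, 10.49 and 10.52, and the FMR4 siRNA arrays 10.69, 10.86 and 11.14, so the groups did not overlap. Arrays of 2 groups did not overlap in 5.6% of genes at this time. The mean difference was 0.44 (SE 0.08, 95% interval 0.27 to 0.62, 1.36-fold), with an adjusted p of 0.0521 in limma. This SE and interval use the spread shared over all conditions, with a pooled SD of 0.11. The SD was 0.23 in FMR4 siRNA and 0.08 in CTRL siRNA at 6 h, so the interval may be too narrow for this comparison. None of the 4 members was called at 6 h, when 0.0597% of genes were. The adjusted p fell to between 0.0116 and 0.0307 under 5 other settings and was 0.604 when only the 12 arrays of 6 h were fitted. It also passed without FMR4 siRNA replicate 1 (0.00898) or replicate 3 (0.0151), and rose to 0.596 without CTRL siRNA replicate 2.

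In the plasmid groups SCAMP1 showed no change that could be told from the spread between arrays. At 6 h the arrays read 10.63, 10.70 and 10.77 with CTRL pcDNA3.1 and 10.64, 10.71 and 10.81 with FMR4 pcDNA3.1, and at both times the groups overlapped. The differences were 0.02 at 6 h (95% interval -0.16 to 0.20) and -0.01 at 24 h (95% interval -0.19 to 0.17). The adjusted p-values were 1 and 0.999 in limma. Between the times the overexpression effect on SCAMP1 differed by -0.03 (SE 0.12, adjusted p = 1).

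CTRL siRNA held less SCAMP1 than the plasmid groups at 6 h also. Its 3 arrays lay below all 6 plasmid arrays of that time, and such a separation in either direction was found in 21.3% of genes. The difference from the mean of both plasmid groups was -0.25 (SE 0.07, 1.19-fold lower, limma adjusted p = 0.0367). In this comparison 9.51% of genes were called in either direction. The call was lost when only the 12 arrays of 6 h were fitted (adjusted p = 0.131) and without any one of 7 of the 9 arrays compared. Those 7 were every CTRL siRNA array, CTRL pcDNA3.1 replicates 1 and 3 and FMR4 pcDNA3.1 replicates 2 and 3, with adjusted p-values between 0.0553 and 0.124. FMR4 siRNA at 6 h was 0.19 above the plasmid groups, with an adjusted p of 0.107 (7.19% of genes called). Without FMR4 siRNA replicate 1 that difference was 0.29 with an adjusted p of 0.00662, and without replicate 3 it was 0.07.

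**Figure D2:**
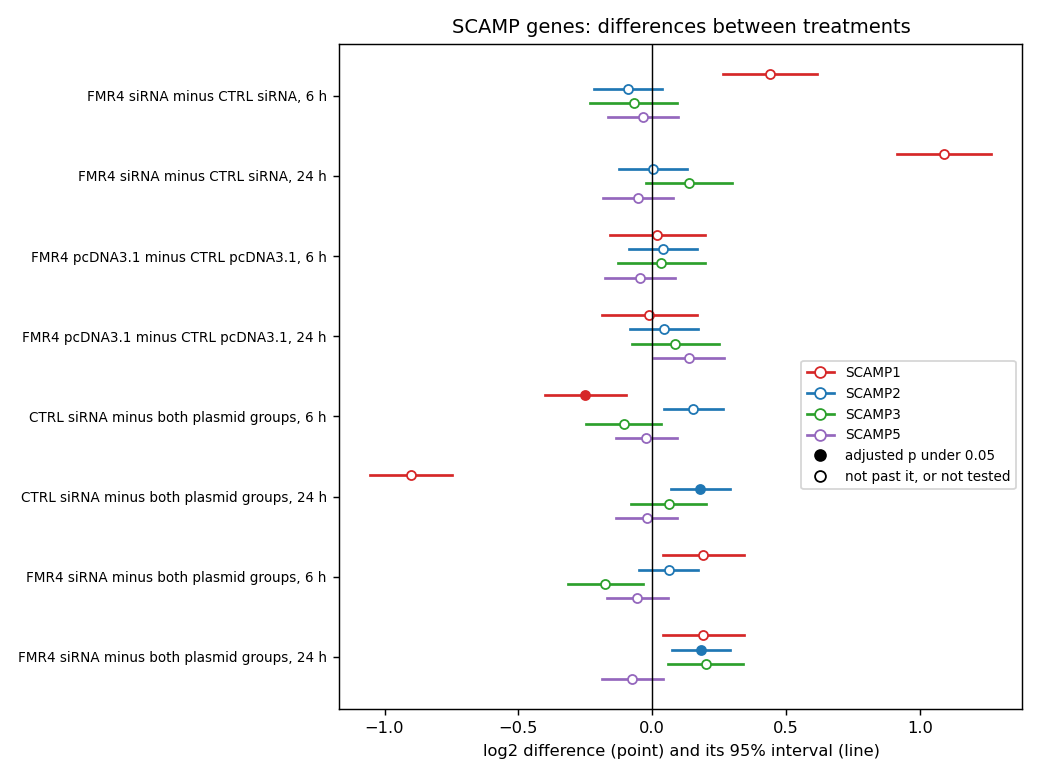
Log2 differences (horizontal axis) of the 4 measured SCAMP genes between treatments at 6 and 24 h (vertical axis), from the limma fit; points are differences of means, lines their 95% intervals, and a filled point marks an adjusted p under 0.05. SCAMP1 in red lies at 1.09 for FMR4 siRNA minus CTRL siRNA at 24 h and at -0.90 for CTRL siRNA minus both plasmid groups at 24 h, both without a test, while the other members stay within 0.20 of 0. The lines of untested SCAMP1 values take no account of its choice and serve as no test.

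Ordered by level, the SCAMP1 conditions formed a low pair and a close run. CTRL siRNA at 24 h was lowest, and CTRL siRNA at 6 h came next, 0.55 higher and with no overlap of arrays, as in 36.9% of genes. CTRL pcDNA3.1 at 6 h followed after a gap of 0.24, again without overlap, as in 31.1% of genes, and that difference was not called (adjusted p = 0.102). From there FMR4 pcDNA3.1 at 6 h, FMR4 pcDNA3.1 at 24 h, CTRL pcDNA3.1 at 24 h, FMR4 siRNA at 6 h and FMR4 siRNA at 24 h followed with gaps between 0.01 and 0.10, and each of these neighbours overlapped.

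SCAMP2, SCAMP3 and SCAMP5 were not called in FMR4 siRNA against CTRL siRNA at either time, nor in FMR4 pcDNA3.1 against CTRL pcDNA3.1. Of all genes, 5.88% were called with FMR4 siRNA at 24 h. With FMR4 pcDNA3.1 no gene was called by limma at 6 or 24 h, 0% of genes in each case, and 373 (2.03%) and 602 (3.27%) had an unadjusted p under 0.05. With FMR4 siRNA that share was 3.9% at 6 h and 16.4% at 24 h. Over the 4 members and 4 comparisons, leaving out the untested value of SCAMP1, an unadjusted p under 0.05 was reached by SCAMP1 at 6 h with siRNA and by SCAMP5 at 24 h with plasmid.

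SCAMP2, a ubiquitous member that acts in regulated exocytosis, was higher in the siRNA groups than in the plasmid groups at 24 h. The arrays of that time read 11.56, 11.60 and 11.60 with CTRL siRNA, and 11.51, 11.59 and 11.66 with FMR4 siRNA. They read 11.31, 11.40 and 11.43 with CTRL pcDNA3.1, and 11.42, 11.42 and 11.44 with FMR4 pcDNA3.1. All 6 siRNA arrays therefore lay above all 6 plasmid arrays. Non-overlap with the plasmid arrays, in either direction, was found in 16.4% of genes for CTRL siRNA and in 18.1% for FMR4 siRNA. CTRL siRNA exceeded the plasmid groups by 0.18 (SE 0.05, 1.13-fold, limma adjusted p = 0.0427, 6.90% of genes called). FMR4 siRNA exceeded them by 0.18 too (SE 0.05, 1.13-fold, limma adjusted p = 0.0252, 12.4% called). CTRL pcDNA3.1 against CTRL siRNA alone was not called at 24 h (-0.20, limma adjusted p = 0.0627) or 6 h (-0.17, 0.102). The 24 h difference passed under 4 other settings (0.0174 to 0.0465), and was not called when any one array was left out (0.0759 to 0.232).

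Both calls of SCAMP2 rest on few arrays. The first was lost without any one of 8 of its 9 arrays, with adjusted p-values from 0.0619 to 0.153, and held only without CTRL pcDNA3.1 replicate 1 (0.0409). The second was lost without CTRL pcDNA3.1 replicate 3 (adjusted p = 0.062) or FMR4 siRNA replicate 2 (0.088) or 3 (0.125), and after quantile normalization (0.0511). At 6 h all CTRL siRNA arrays lay above the plasmid arrays, where 21.3% of genes showed non-overlap in either direction. The difference was 0.15 with an adjusted p of 0.0673. That difference passed with quantile normalization (0.0498) and with trend and robust options (0.039), while a fit to the 12 arrays of 6 h gave 0.174. FMR4 siRNA at 6 h overlapped the plasmid arrays, with a difference of 0.06 (95% interval -0.05 to 0.17, adjusted p = 0.492). Between the siRNA groups SCAMP2 differed by -0.09 at 6 h (95% interval -0.22 to 0.03) and by 0.00 at 24 h (95% interval -0.12 to 0.13).

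SCAMP3, which is phosphorylated after EGF receptor activation and takes part in sorting that receptor, showed small differences. At 24 h its arrays read 10.63, 10.64 and 10.64 with CTRL siRNA and 10.71, 10.77 and 10.83 with FMR4 siRNA, which did not overlap. Non-overlap in either direction was found in 22.2% of genes in that comparison. The difference was 0.14 (SE 0.08, 95% interval -0.02 to 0.30) with an adjusted p of 0.438. Against the plasmid groups at 24 h FMR4 siRNA was 0.20 higher (adjusted p = 0.0577), which passed in a fit to the 12 arrays of the time (0.0149), with median centring (0.0303), with trend and robust options (0.0386) and without CTRL pcDNA3.1 replicate 1 (0.0468). It was 0.13 with quantile normalization and up to 0.181 without other single arrays. At 6 h the same comparison had the opposite sign, at -0.18 (95% interval -0.32 to -0.04, adjusted p = 0.107), and passed without FMR4 siRNA replicate 1 (0.021). At 6 h the arrays of CTRL siRNA ran from 10.41 to 10.79 and those of FMR4 siRNA from 10.41 to 10.68, the 2 conditions with the widest spread of this gene.

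SCAMP5, the member tied to synaptic vesicles, was expressed above the mostly silent genes. Its condition means lay between 8.74 and 9.07, over the 95th percentile of 7.73 given above. At 24 h the arrays read 8.89, 8.93 and 8.99 with CTRL pcDNA3.1 and 9.05, 9.08 and 9.09 with FMR4 pcDNA3.1. These did not overlap, as was so in 12% of genes. The difference of 0.14 (95% interval 0.01 to 0.27) had an unadjusted p of 0.0409 and an adjusted p of 0.999. FMR4 siRNA against CTRL siRNA gave -0.03 at 6 h and -0.05 at 24 h, with adjusted p-values of 1 and 0.787.

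The SCAMP5 mean was higher at 24 h than at 6 h in each of the 4 treatments, and the rise was called in 3 of them. With FMR4 pcDNA3.1 its arrays went from 8.74, 8.77 and 8.79 at 6 h to 9.05, 9.08 and 9.09 at 24 h, a difference of 0.30 (SE 0.06, 1.23-fold, limma adjusted p = 0.00509). That call held under each alternative and without each array in turn, with adjusted p-values up to 0.0291, and 6.33% of genes were called in this comparison. With CTRL siRNA the rise was 0.21 (1.16-fold, adjusted p = 0.0219), where 18.5% of genes were called, and with FMR4 siRNA it was 0.19 (1.14-fold, adjusted p = 0.0392), where 16.7% were. The FMR4 siRNA arrays went from 8.63, 8.71 and 8.87 to 8.85, 8.96 and 8.98 and overlapped, while those of CTRL siRNA did not, at 8.69, 8.76 and 8.86 before and 8.89, 9.02 and 9.05 after. Arrays of the times did not overlap in 36.9% of genes with CTRL siRNA and in 33.4% with FMR4 pcDNA3.1. With CTRL pcDNA3.1 the arrays went from 8.78, 8.81 and 8.86 to 8.89, 8.93 and 8.99, a difference of 0.12 with an adjusted p of 0.296 (5.76% called). The change with FMR4 pcDNA3.1 exceeded that with CTRL pcDNA3.1 by 0.18 (adjusted p = 1), so a difference between treatments in the rise was not shown.

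The siRNA calls of SCAMP5 were lost in several settings. The rise with CTRL siRNA was lost without replicate 1 or 2 of 24 h or replicate 1 or 3 of 6 h, with adjusted p-values between 0.0705 and 0.112. The rise with FMR4 siRNA was lost without replicate 2 or 3 at either time (0.0941 to 0.18), with median centring (0.082) and with quantile normalization (0.202).

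SCAMP3 was called with time in FMR4 siRNA, and its change there was not shown to differ from that in any other treatment. It rose by 0.23 (SE 0.08, 1.18-fold, limma adjusted p = 0.0441, 16.7% of genes called), from arrays of 10.41, 10.53 and 10.68 to the 24 h values given above. The call was lost without any one of 5 of the 6 arrays, all except FMR4 siRNA replicate 1 of 6 h (adjusted p-values from 0.0529 to 0.182), and with median centring (0.0878) or quantile normalization (0.0971). In the other treatments the difference was 0.03 for CTRL siRNA, -0.17 for CTRL pcDNA3.1 and -0.12 for FMR4 pcDNA3.1, with adjusted p-values from 0.227 to 0.877. The change with FMR4 siRNA exceeded that with CTRL siRNA by 0.21 (95% interval -0.02 to 0.44, adjusted p = 0.532). The change with CTRL pcDNA3.1 minus that with FMR4 siRNA was -0.40 (adjusted p = 0.0517), and that with FMR4 pcDNA3.1 minus FMR4 siRNA was -0.35 (adjusted p = 0.0834). SCAMP2 was not called with time in any treatment, with differences between -0.10 and 0.02.

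SCAMP1 fell from 10.46 to 9.91 on average in CTRL siRNA, and this value is a description. All 24 h arrays lay below all 6 h arrays, and 36.9% of genes showed non-overlap in either direction. In FMR4 siRNA the difference was 0.10, also untested. The plasmid groups gave 0.12 with CTRL pcDNA3.1 (adjusted p = 0.473) and 0.09 with FMR4 pcDNA3.1 (adjusted p = 0.624). The CTRL siRNA group was thus the one whose SCAMP1 mean was lower at 24 h than at 6 h.

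**Figure D3:**
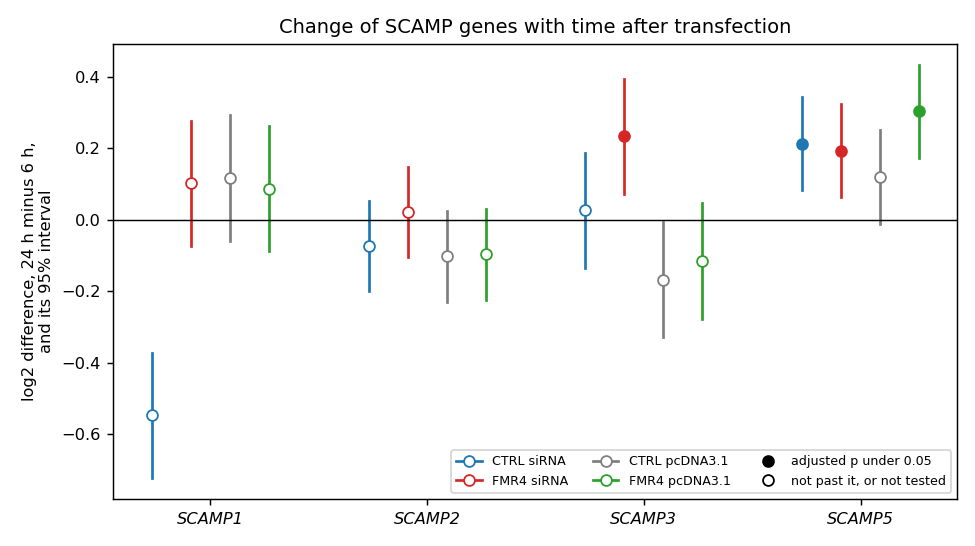
Log2 difference between 24 and 6 h (vertical axis) of each measured SCAMP gene (horizontal axis) in the 4 treatments, with 95% intervals as lines; filled points have an adjusted p under 0.05. SCAMP5 lies above 0 in each treatment, from 0.12 to 0.30, and SCAMP1 with CTRL siRNA lies at -0.55, which was not tested. The SCAMP1 lines of CTRL siRNA and FMR4 siRNA take no account of its choice and serve as no test.

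The members did not move together over the arrays. Pearson's r between pairs of members over the 24 arrays, which fall into 8 conditions, lay between -0.34 (SCAMP2 and SCAMP5) and 0.13 (SCAMP2 and SCAMP3). The genes most like SCAMP1 among 10347 genes above the silent level were YWHAH, an adaptor that binds phosphorylated proteins (r = 0.942), F2R, the thrombin receptor (0.941), LSM14A, a component of processing bodies (0.938), SAR1B, the small GTPase that starts COPII coats (0.933), and PXYLP1, a phosphatase of proteoglycan synthesis (0.932). For these 5 genes the difference between FMR4 siRNA and CTRL siRNA at 24 h lay between 0.78 and 1.18, and CTRL siRNA at 24 h was 0.66 to 0.92 under both plasmid groups. FMR4 siRNA at 24 h was 0.06 to 0.29 above the plasmid groups in the same genes. At 6 h the difference between the siRNA groups lay between 0.15 and 0.56.

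**Figure D4:**
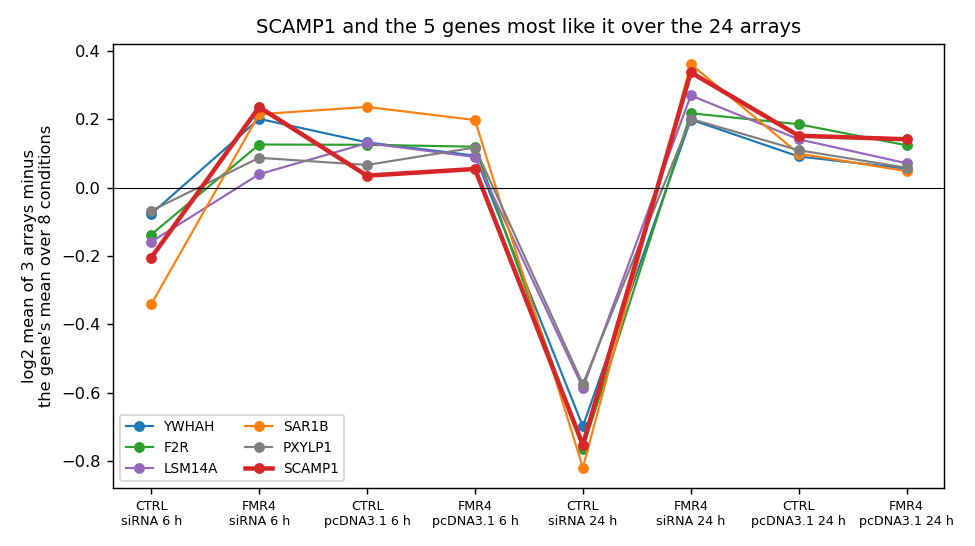
SCAMP1 and the 5 genes whose values correlate most with it over the 24 arrays, as the log2 mean of 3 arrays minus the gene's mean over the 8 conditions (vertical axis) in each condition (horizontal axis); lines only join the points of a gene. The genes were picked for this likeness, and each has its lowest point in CTRL siRNA at 24 h.

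The genes most like SCAMP2 were PLAGL2, a zinc finger transcription factor (r = 0.933), and CBX6, a Polycomb protein (0.913). Both were higher in the siRNA groups: PLAGL2 had means of 10.86 and 10.91 in the siRNA groups of 24 h against 10.55 and 10.61 in the plasmid groups. AKT2, a kinase of insulin signalling, and RABGGTA, a subunit of the enzyme that prenylates Rab proteins, were closest to SCAMP3 (both r = 0.893). CYBC1, a chaperone of the phagocyte cytochrome (0.895), and WDR62, a spindle pole protein (0.885), were closest to SCAMP5 and had higher means at 24 h than at 6 h in each treatment. These likenesses are descriptions over arrays that share conditions and have no p.

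Of 65 genes listed for their relation to SCAMPs, 61 were measured, and 1 was called in FMR4 siRNA against CTRL siRNA at 24 h, 1.64% against 5.88% of all genes. This was SYP, synaptophysin, a tetraspan protein of synaptic vesicles, and it was lower. Its CTRL siRNA arrays read 7.57, 7.90 and 7.98 and its FMR4 siRNA arrays 7.38, 7.47 and 7.48, all below the former and near the level of the mostly silent genes. Of all genes, 22.2% showed non-overlap in either direction in this comparison. The difference was -0.38 (SE 0.09, limma adjusted p = 0.014). Leaving out 1 array ended the call in 3 cases, namely CTRL siRNA replicate 1 (adjusted p = 0.0763), CTRL siRNA replicate 3 (0.108) and FMR4 siRNA replicate 2 (0.0757), and so did a fit to the 6 arrays compared (0.0629). Against the mean of both plasmid groups at 24 h, SYP differed by -0.0055 in CTRL siRNA (limma adjusted p = 0.985, 6.90% of genes called). In FMR4 siRNA it differed from that mean by -0.38 (limma adjusted p = 0.0024, 12.4% called). At 6 h, and in FMR4 pcDNA3.1 against CTRL pcDNA3.1 at either time, none of the 61 was called. The share of all genes called was 0.0597% at 6 h with siRNA and 0% in both plasmid comparisons.

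Among the other tetraspan vesicle proteins, the physins and gyrins, SYPL1 differed by 0.18 (adjusted p = 0.109) and SYNGR1 by 0.12 (0.461) at 24 h with FMR4 siRNA. All 8 were measured, and their median difference was 0.08 beside 0.00 over all genes. SYNPR, with a mean of 4.38, lay under the 7.73 given above for the mostly silent genes. Of the EH-domain proteins and synergin, which bind NPF motifs or join that machinery, none of 10 was called, where 5.88% of all genes were. REPS2 among them had a mean of 7.58, also under 7.73. ITSN1, an endocytic scaffold, differed by -0.13 (adjusted p = 0.287), EHD1, which acts in recycling, by 0.11 (0.526) and EPS15, an adaptor of clathrin coats, by -0.10 (0.554), and the list's median was -0.03. REPS1 was not measured as a single gene.

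Proteins reported to bind or act with SCAMPs gave 0 calls among 12 at 24 h with FMR4 siRNA, with a median of 0.00. In this comparison 5.88% of all genes were called. PLD1, SLC9A5, SLC6A3, SLC6A4, SYT2 and CADPS had means under 7.73, the 95th percentile of the mostly silent genes. VAMP2, a vesicle SNARE, differed by 0.21 (adjusted p = 0.176), SYT1, a calcium sensor of exocytosis, by -0.17 (0.19) and PLD2, a phospholipase D, by 0.12 (0.444). In the list of ESCRT and receptor sorting proteins 0 of 15 were called, with a median of 0.05. EGFR, the receptor of epidermal growth factor, differed by 0.20 (adjusted p = 0.0777), VPS37A, an ESCRT-I subunit, by -0.19 (0.158) and STAM2, which binds ubiquitinated cargo, by 0.18 (0.188). Trans-Golgi and recycling cargo and SNAREs gave 0 of 16, with a median of 0.02. TGOLN2, the trans-Golgi network marker, differed by -0.37 (adjusted p = 0.0646), SORL1, a sorting receptor, by -0.25 (0.0949) and the SNARE VTI1B by -0.10 (0.442). The SORL1 mean of 7.39 was also under 7.73.

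**Figure D5:**
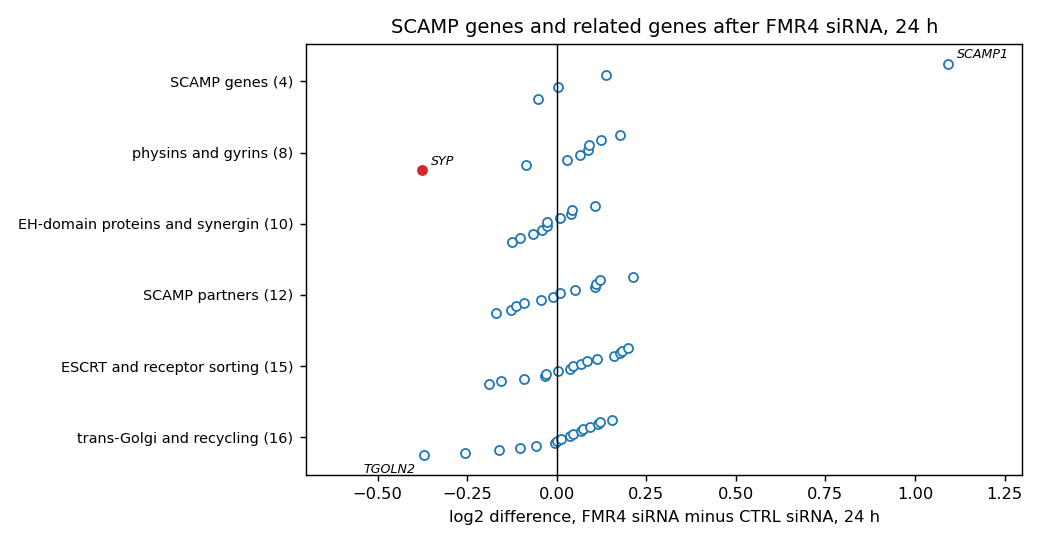
Log2 difference between FMR4 siRNA and CTRL siRNA at 24 h (horizontal axis) for the SCAMP genes and 5 lists of related genes (vertical axis, with the number measured in each); each circle is a gene, and the filled red one has an adjusted p under 0.05. SYP at -0.38 is the filled circle, and SCAMP1 at 1.09, which was not tested, lies to the right of all listed genes.

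The other main comparisons called 0.0597% of all genes at 6 h with siRNA and 0% with FMR4 pcDNA3.1 at each time. The listed genes of lowest p were not called in them either. At 6 h with siRNA these were SYP (-0.18), REPS2 (-0.20), the SNARE STX1A (-0.20), VPS37A (-0.15) and TGOLN2 (-0.28), each with an adjusted p of 1. With FMR4 pcDNA3.1 at 6 h they were SYPL1 (-0.06), EHD3 (0.10), STX1A (0.17), VPS37A (0.08) and VTI1B (-0.12), again with adjusted p-values of 1. At 24 h they were SYNGR1 (0.12), EPS15 (-0.07), PLD1 (-0.22), the ESCRT-I subunit TSG101 (-0.06) and VTI1A (-0.14), each with an adjusted p of 0.999. REPS2 and PLD1, with means of 7.58 and 7.24, did not exceed the 7.73 of the mostly silent genes.

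Several listed genes were called between the times. From 6 to 24 h in FMR4 siRNA, where 16.7% of all genes were called, 7 of 16 trans-Golgi and recycling genes rose and 2 fell, and 5 of 12 SCAMP partners rose and 1 fell. In the same comparison 3 of 15 ESCRT and sorting genes rose, 2 of 8 physins and gyrins rose and 1 fell, and 0 of 10 EH-domain proteins and synergin were called. In CTRL siRNA, with 18.5% of all genes called, 4 of the 16 rose and 1 fell, 3 of the 12 rose and 2 fell, 2 of the 15 rose and 1 fell, 0 of the 8 were called and 2 of the 10 rose. In CTRL pcDNA3.1, with 5.76% called, 1 of the 16 and 3 of the 12 rose. In FMR4 pcDNA3.1, with 6.33% called, 1 of the 16 fell and 2 of the 12 rose, and in both plasmid treatments 0 genes of the other lists were called. The difference of these counts between treatments was not tested.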

How the data were processed

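RNA of HEK293T cells was hybridized to Affymetrix Human Gene ST arrays (version 1.0 per the labels and the annotation, 2.0 in the study's methods), 3 arrays for each of 8 conditions. The authors subtracted background and applied GC-RMA with the Affymetrix Command Console and Bioconductor (versions not given in the sources used here), and the deposited values are log2 expression of 33297 probe sets between 2.62 and 14.5. They were used as deposited. GC-RMA can narrow differences of dim probe sets. The series' design calls the 3 arrays biological replicates, each made from 3 pooled technical ones; no label ties them to separate cultures, so p-values measure the spread between these arrays, which may be technical.

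Probe sets with 1 gene symbol numbered 19460, with several 1754 and with none 12083. The 21214 with a gene were fitted with limma 3.58.1 in R 4.3.3, 1 mean per condition, with 16 residual degrees of freedom, and p-values were adjusted within each comparison; counts are over 18417 genes. A total of 22 comparisons was computed. Of these, 6 compare the change with time between treatments and were added after values were seen. The one of FMR4 siRNA minus CTRL siRNA repeats the time difference of the knockdown effect. The one of FMR4 pcDNA3.1 minus CTRL pcDNA3.1 repeats that of the overexpression effect. The fit was tested on simulated data. Named genes are all members, the 3 genes of lowest p of each list in FMR4 siRNA against CTRL siRNA at 24 h and the one of lowest p in the other main comparisons, and the genes most correlated with each member. Members and lists were chosen with earlier results of these data known. Replicate numbers were not taken as pairs, since correlations of the deviations of same-numbered arrays from their condition means varied. They lay between -0.38 and 0.47, with 5 of 12 values over 0.1. Alternatives were other normalizations, fits, filters and array sets. Sequences and positions are from RefSeq (GRCh38.p14), where all 5 members matched. The plots come from matplotlib 3.10.9 under Python 3.11.15.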

Additional observations from a re-analysis of the deposited data

Results flagged for a closer look

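The change of SCAMP1 between 6 and 24 h in CTRL siRNA had another sign than that in the other treatments. Its mean fell by 0.55 in CTRL siRNA, and the other changes exceeded that one by 0.65 in FMR4 siRNA, 0.67 in CTRL pcDNA3.1 and 0.64 in FMR4 pcDNA3.1. Each was noted because the 24 h arrays of CTRL siRNA lay below their 6 h mean while all 24 h arrays of the other treatment lay above theirs. In those other treatments the arrays of the 2 times overlapped. The 95% interval of the change included 0 with CTRL pcDNA3.1 (-0.06 to 0.29) and with FMR4 pcDNA3.1 (-0.09 to 0.26). With FMR4 siRNA the change was 0.10, without a test. None of the 3 differences was tested, because SCAMP1 was chosen on the CTRL siRNA and FMR4 siRNA arrays of 24 h.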

How the results depend on the processing

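Signal over background, the number of arrays and differences near the threshold limit these results. SCAMP1 in FMR4 siRNA against CTRL siRNA at 6 h, not called in the analysis above, passed the threshold with array weights (0.39, adjusted p = 0.0148), without dim probe sets (0.44, 0.0249), with median centring (0.46, 0.0307), with quantile normalization (0.45, 0.0116) and with trend and robust options (0.44, 0.014), which gives 1 called member in each of these in place of 0. Leaving out each array moved its difference from 0.32 to 0.54 and the count of called members from 0 to 1. A fit to the 6 arrays compared gave an adjusted p of 1 and one to the 12 arrays of 6 h gave 0.604. With the replicate block (the replicate number within a time and arm) its difference was 0.44 and the adjusted p 0.0931, and the block changed no call of a member in the 4 main comparisons and left SYP called (0.029). The SCAMP1 difference between the siRNA groups at 24 h, which has no test, lay between 1.04 and 1.15 without each array in turn. The cause of these shifts was not tested.

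Signs turned for differences that were not called. These were SCAMP1 in FMR4 pcDNA3.1 against CTRL pcDNA3.1 at 24 h with median centring (0.0123) and quantile normalization (0.0313), SCAMP2 in FMR4 siRNA against CTRL siRNA at 24 h with array weights (-0.0182), median centring (-0.0149) and quantile normalization (-0.0192), and SCAMP5 there at 6 h with quantile normalization (0.0001). They were also SCAMP5 in CTRL siRNA against the plasmid groups at 24 h with median centring (0.013), SCAMP2 with time in FMR4 siRNA with median centring (-0.0209) and quantile normalization (-0.0068), and the time difference of the SCAMP1 overexpression effect with quantile normalization (0.0042). Leaving out single arrays gave ranges across 0 in these results. With FMR4 pcDNA3.1 against CTRL pcDNA3.1, SCAMP1 lay between -0.0252 and 0.0598 at 6 h, and between -0.0329 and 0.0193 at 24 h. With FMR4 siRNA against CTRL siRNA, SCAMP3 lay from -0.169 to 0.0211 and SCAMP5 from -0.0999 to 0.0188 at 6 h, and SCAMP2 from -0.0308 to 0.0402 at 24 h. SCAMP3 in CTRL pcDNA3.1 against CTRL siRNA at 6 h lay from -0.0102 to 0.18. Against the plasmid groups, SCAMP5 in CTRL siRNA lay between -0.0671 and 0.0182 at 6 h, and between -0.0524 and 0.0283 at 24 h, and SCAMP2 in FMR4 siRNA from -0.0146 to 0.112 at 6 h. Between times, SCAMP3 in CTRL siRNA lay from -0.0737 to 0.116, SCAMP1 in FMR4 siRNA (without a test) from -0.0021 to 0.22 and SCAMP2 in FMR4 siRNA from -0.0298 to 0.0969. The time difference of the knockdown effect on SCAMP5 lay from -0.072 to 0.0467, and that of the overexpression effect from -0.0702 to 0.0149 for SCAMP1 and from -0.0295 to 0.0295 for SCAMP2. Of 792 such values of the members under alternatives, 698 were kept, 38 turned sign, 37 lost a call and 19 gained one. A tested value was kept where its direction and side of the threshold stayed the same. Untested SCAMP1 values have no side of the threshold, and were kept where the direction stayed and the move was smaller than the SD between arrays.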
